A study of Bos taurus with 6 samples.

Results

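Fatty acid oxidation and peroxisome genes were examined in bovine blastocysts produced in vitro, as 50 of the 9537 genes in the authors' deposited table. They were chosen by symbol: the peroxins (PEX), acyl-CoA dehydrogenases (ACAD), acyl-CoA oxidases (ACOX), acyl-CoA thioesterases (ACOT), thiolases (ACAA), enoyl-CoA isomerases and hydratases (ECI, ECHS and ECHDC), hydroxyacyl-CoA dehydrogenases (HADH), carnitine palmitoyltransferases (CPT) and electron transfer flavoprotein genes (ETF). From general knowledge of their proteins, 22 were placed in mitochondria, 20 in peroxisomes and 2 in both, and 6 were cytosolic or of uncertain location. RNA was sequenced from 3 libraries of embryos with low cryosurvival (NV in the titles) and 3 libraries with high cryosurvival (V in the titles), that is, survival after vitrification, a rapid cooling into a glass-like state. All embryos were blastocysts grown in the same standard medium, SOFaaci. The labels do not explain the codes NV and V, so what else these may mark cannot be told apart from cryosurvival. The titles also carry the codes LC and HC. The labels give neither the moment of RNA extraction relative to vitrification nor the cultures or pools behind each library, so p-values measure only the spread between these libraries, which may be technical.

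Fatty acids are burned in mitochondria and in peroxisomes by parallel sets of enzymes. Mitochondria take up activated fatty acids as carnitine esters and pass the electrons of each cycle through the electron transfer flavoprotein to the respiratory chain, while peroxisomes shorten very long and branched chains and hand electrons to oxygen as hydrogen peroxide. Peroxins build the peroxisome: they insert its membrane proteins, import its enzymes, recycle the import receptors and divide the organelle. Bovine oocytes and early embryos carry large lipid stores, and lipid content is a long-standing topic in the freezing of cattle embryos.

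The table held 14651477 to 19467022 reads per library, given as CPM, read counts scaled to a common library size. CPM is not divided by gene length, so levels were compared between groups and not between genes. Each member was above the table's lowest mean over the 6 libraries, 0.737 CPM. The fewest reads of any member in a library were 5, for ECHDC3 in low cryosurvival library 2. That library stood apart from the other 5. An index of message length, the median log2(CPM + 1) of 26 genes with long messages minus that of 52 genes with short ones, was -2.53 there. The index was -0.02 and -0.32 in low libraries 1 and 3, and -0.87, -0.79 and -1.12 in high libraries 1, 2 and 3. Of the 9 trophectoderm and 5 inner cell mass markers listed, all were measured, and 4 of 6 hypoblast markers were. Of 10 cumulus and granulosa genes, markers of the cells around the oocyte, 4 were measured, with summed levels of 40.9 to 46.4 CPM in the low libraries against 43.3 to 47.6 CPM in the high ones. The summed trophectoderm markers ranged from 27066 to 37773 CPM in low libraries, against 31634 to 35063 CPM in high libraries, and consist mostly of the keratins KRT8 and KRT18. Of these 9 markers 8 had negative log2 differences, with a median of -0.23, and GATA2, TFAP2A and TFAP2C did not overlap between the groups (limma adjusted p = 0.258, 0.270 and 0.780). These 3 of 9 were lower in low libraries. Over all genes 10.6% were lower and 10.4% higher without overlap. The inner cell mass markers summed to 1046 to 1200 CPM in low libraries, against 1040 to 1167 CPM in high ones, and the measured hypoblast markers to 102 to 153 CPM, against 133 to 172 CPM. Within the inner cell mass list, the pluripotency factor NANOG was at 22.1, 12.2 and 14.3 CPM in low libraries, against 47.3, 31.1 and 37.6 CPM in high ones. Its limma adjusted p was 0.164, and 0.002 in the authors' deposited table. The part of cell composition in the results below was not tested, and in whole embryos fewer cells of a type and less RNA per cell cannot be told apart.

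ECI2, an isomerase that lets unsaturated fatty acids enter the oxidation cycle, occurs in both organelles. Its transcript was lower in the low cryosurvival libraries. ECI2 was at 38.0, 32.0 and 29.0 CPM in low cryosurvival libraries 1, 2 and 3, against 56.8, 49.7 and 63.9 CPM in high libraries 1, 2 and 3. Every low library lay below every high one, and low library 2 lay between the other low libraries. The means were 33.0 ± 4.58 and 56.8 ± 7.12 CPM (SD, n = 3 each), a ratio of 0.581. ECI2 was the only member with an adjusted p below 0.05 in the authors' deposited table (0.038), whose log2 fold, turned to low over high, was -0.78. That table called 114 genes, 1.2% of all, and the 27 lower in low cryosurvival were 0.283%. Limma on log2(CPM + 1), adjusted over all genes, gave ECI2 a log2 difference of -0.77 (SE 0.16, adjusted p = 0.164).

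Limma called 0 members and 0.0% of all genes at an adjusted p of 0.05, and voom, a weighted limma fit on the recovered reads, also called 0 of both. At an unadjusted p below 0.05, limma gave 7 of 50 members, against 12.0% of all genes (1142), and voom gave 6 of 50, against 11.7% of all genes (1120). These shares are close to the background. Without low library 2, limma called 6 members, namely CPT1A higher in low cryosurvival and ECI2, PEX10, PEX16, PEX6 and ACAD9 lower. The 5 lower are 10% of the members, against 5.48% of all genes, and the 1 higher is 2%, against 8.15%. With the length index as covariate limma called another set of 6 members, all lower in low cryosurvival: ECI2, PEX10, PEX16, CPT1B, ACOT13 and ECHDC1. These are 12% of the members, against 7.0% of all genes lower and 7.13% higher. ECI2, PEX10 and PEX16 were called in both fits, which share 5 libraries and are not independent of each other. Without low library 2 the length index itself did not overlap between the groups. It was -0.02 and -0.32 in low libraries 1 and 3, and -1.12 to -0.79 in high libraries. In that fit a difference by cryosurvival and one by message length therefore cannot be told apart.

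In 9 members the 3 low libraries lay below the 3 high ones, 18% against 10.6% of all genes. In 3 members, HADHA, ACOT7 and ACOT11, they lay above, 6% against 10.4% of all genes. The 9 lower members were ECI2, PEX10, ACOX3, CPT1B, CPT2, ACADVL, ACADSB, ACOT13 and ECHDC1. By compartment, 5 of 22 mitochondrial and 2 of 20 peroxisomal members were lower without overlap, and 1 mitochondrial and 0 peroxisomal members were higher.

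**Figure D1:**
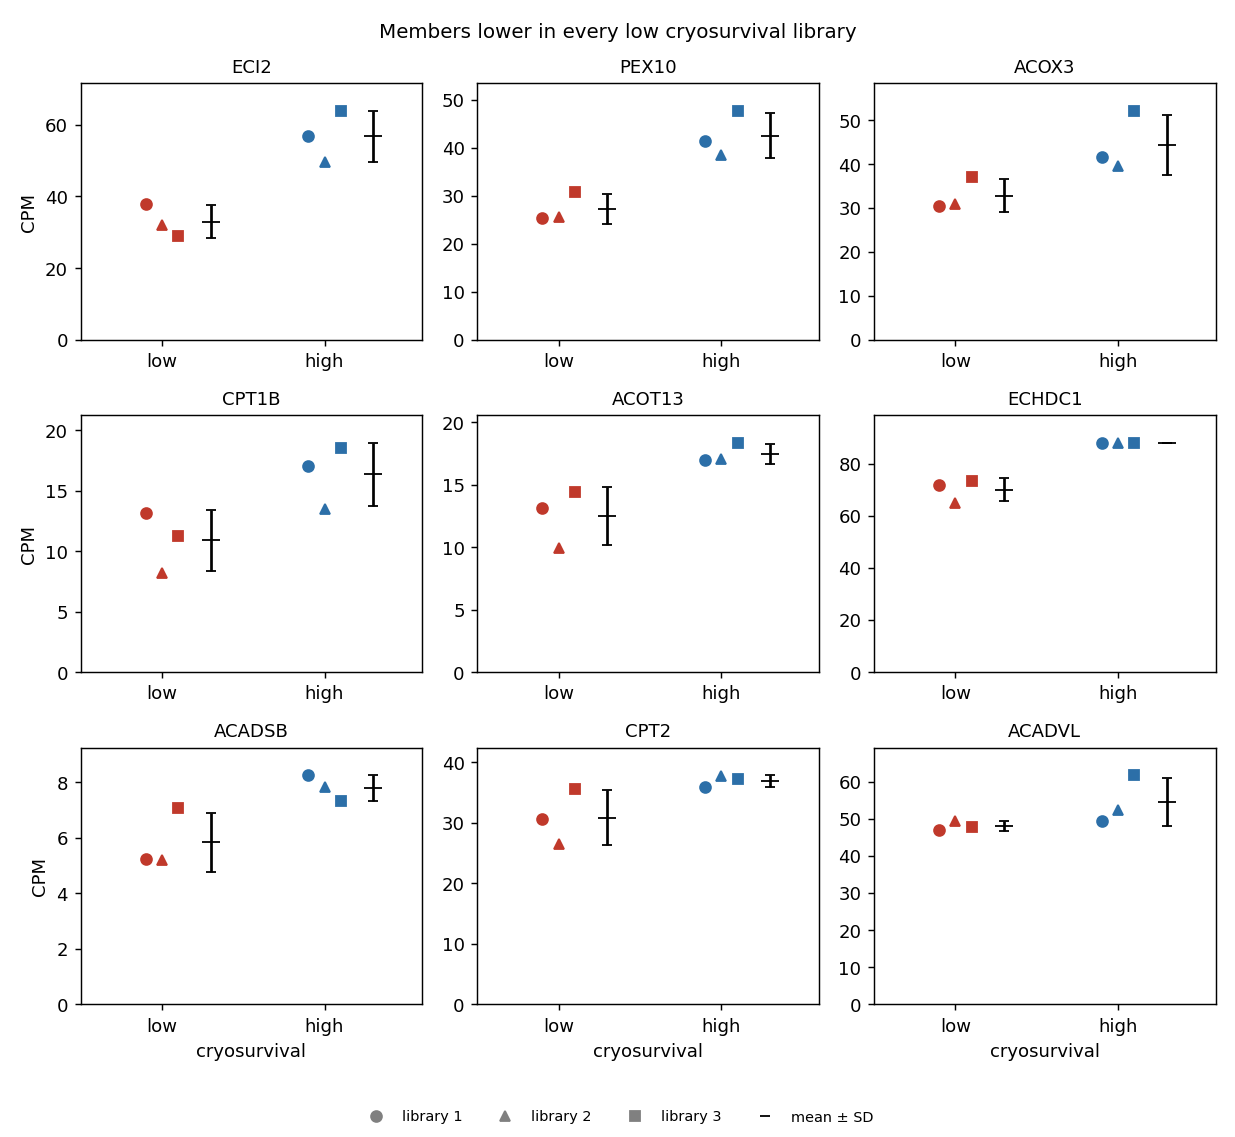
CPM (vertical axes, from 0) of the 9 members whose low cryosurvival libraries all lay below the high ones, with 1 point per library and the mean ± SD (n = 3) beside each group. ECI2 and PEX10 have wide gaps between groups, while for ACADVL the highest low library (49.3 CPM) nearly reaches the lowest high one (49.4 CPM).

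Of the carnitine enzymes, CPT1B and CPT2 were lower without overlap in low cryosurvival libraries, and CPT1A overlapped. CPT1B, the muscle form of the enzyme that joins fatty acids to carnitine at the outer mitochondrial membrane, was at 13.2, 8.19 and 11.3 CPM in low libraries against 17.0, 13.5 and 18.5 CPM in high libraries 1, 2 and 3. The groups did not overlap, with a ratio of 0.665 and a log2 difference of -0.56 (SE 0.20, limma adjusted p = 0.345, and 0.0479 with the length index). CPT1A, the liver form that most other tissues also use, was at 84.1, 48.7 and 107 CPM in low libraries against 60.0, 58.4 and 61.0 CPM in high ones. Low libraries 1 and 3 lay above the high group and low library 2 below it. The log2 difference of CPT1A was 0.34 (SE 0.28, limma adjusted p = 0.742), and 0.66 without low library 2 (limma adjusted p = 0.0248). CPT2 returns the fatty acid from carnitine to coenzyme A inside the mitochondrion. CPT2 was at 30.6, 26.4 and 35.7 CPM in low libraries, against 35.9, 37.8 and 37.2 CPM in high ones. Its groups nearly touched (log2 difference -0.26, limma adjusted p = 0.566).

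The acyl-CoA dehydrogenases, which start each cycle in mitochondria, had negative log2 differences in 4 of 4 members for straight fatty acids and 3 of 3 with other roles, and 0 of these 7 were called over all 6 libraries. ACAD11, of both compartments, had a positive one (0.15). ACADVL, the very long chain enzyme, was at 46.9, 49.3 and 47.8 CPM in low libraries against 49.4, 52.3 and 61.7 CPM in high libraries 1, 2 and 3 (log2 difference -0.17, limma adjusted p = 0.711). ACADSB, which acts on short branched chains in isoleucine breakdown, was at 5.24, 5.18 and 7.07 CPM in low against 8.24, 7.81 and 7.32 CPM in high libraries. Its ratio was 0.748 and its limma adjusted p 0.382. ACAD9, an assembly factor of respiratory complex I, was at 87.7, 130 and 94.7 CPM in low libraries, against 131, 133 and 118 CPM in high ones. Here low library 2 lay within the high group and the other low libraries below it, and the log2 difference was -0.31 (limma adjusted p = 0.583), or -0.48 without low library 2 (limma adjusted p = 0.0326). ACADS, the short chain enzyme, was at 48.6, 74.8 and 52.1 CPM in low libraries against 58.2, 59.8 and 57.2 CPM in high libraries. Low library 2 was above and the other low libraries were below the high group, so its log2 difference of -0.02 (SE 0.18) was the balance of opposite deviations. ACADM, the medium chain enzyme, had 25.5 CPM in low library 2 and 41.0 to 48.6 CPM in the other 5 libraries, and its log2 difference of -0.24 was 0.03 without low library 2. The long chain enzyme ACADL ranged from 4.40 to 5.44 CPM in low libraries, against 5.10 to 6.49 CPM in high ones, and ACAD8, which acts in valine breakdown, from 17.5 to 18.6 CPM against 18.5 to 24.9 CPM.

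In the later steps of the mitochondrial cycle 5 of 6 members had positive log2 differences, the median was 0.09, and 0 were called in any of the 3 fits named above. HADHA and HADHB encode the subunits of the trifunctional protein of long chain oxidation and are neighbouring genes in the bovine assembly ARS-UCD2.0. HADHA was at 34.0, 34.4 and 41.0 CPM in low libraries against 33.2, 29.2 and 29.1 CPM in high libraries 1, 2 and 3, without overlap (ratio 1.20, limma adjusted p = 0.558). HADHB was at 36.2, 40.8 and 35.5 CPM in low libraries against 34.1, 37.0 and 32.3 CPM in high libraries, with overlap (ratio 1.09, limma adjusted p = 0.821). HADH, the short chain hydroxyacyl dehydrogenase, was at 52.7 ± 1.06 CPM in low libraries against 51.2 ± 3.00 CPM in the high group (SD over 3 libraries in each), and the mitochondrial thiolase ACAA2 at 17.3 ± 0.413 and 15.4 ± 2.10 CPM. The hydratase ECHS1 was at 52.0, 63.8 and 51.2 CPM in low libraries against 61.3, 58.6 and 63.5 CPM in high libraries, with a log2 difference of -0.14 (limma adjusted p = 0.801). Without low library 2 that of ECHS1 was -0.24, with no overlap (limma adjusted p = 0.102). In that setting 2627 of all 9537 genes were lower in low libraries without overlap, and 2630 were higher. ECI1, the mitochondrial counterpart of ECI2, did not show the ECI2 pattern: it was at 16.2, 28.4 and 15.0 CPM in low libraries against 19.7, 18.1 and 16.5 CPM in high libraries (log2 difference 0.07, limma adjusted p = 0.959). Its sign rested on low library 2, and without that library the log2 difference was -0.20 (limma adjusted p = 0.212).

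The electron transfer flavoprotein carries the electrons of the acyl-CoA dehydrogenases, while the hydroxyacyl-CoA dehydrogenases pass theirs to NAD. Its alpha subunit gene ETFA was at 76.2, 88.9 and 71.8 CPM in low libraries against 99.9, 88.8 and 96.5 CPM in high libraries 1, 2 and 3. Low library 2 overlapped the lowest high library, and the log2 difference was -0.27 (limma adjusted p = 0.512; 0.0530 without low library 2). The beta subunit gene ETFB was at 162, 329 and 176 CPM in low libraries against 205, 188 and 217 CPM in high libraries. Its log2 difference was 0.05 with all libraries and -0.27 without low library 2 (limma adjusted p = 0.975 and 0.118). ETFDH, whose product passes the electrons on to ubiquinone, was at 15.2 ± 3.13 CPM in low libraries against 16.3 ± 2.66 CPM in the high group (SD over 3 libraries in each). Among the mitochondrial thioesterases, which release free fatty acids, ACOT13 was at 13.1, 9.91 and 14.4 CPM in low against 17.0, 17.0 and 18.4 CPM in high libraries. The groups did not overlap (ratio 0.715, log2 difference -0.47, limma adjusted p = 0.316, and 0.0255 with the length index). ACOT9 was at 68.4, 105 and 73.4 CPM in low libraries against 70.1, 68.7 and 85.2 CPM in high libraries (log2 difference 0.12, limma adjusted p = 0.901), and ACOT2 had ranges of 1.65 to 2.55 CPM in low libraries against 2.41 to 2.78 CPM in high libraries. ACOT2 and the peroxisomal ACOT4 are neighbouring genes of similar sequence, so reads may have been split between them.

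**Figure D2:**
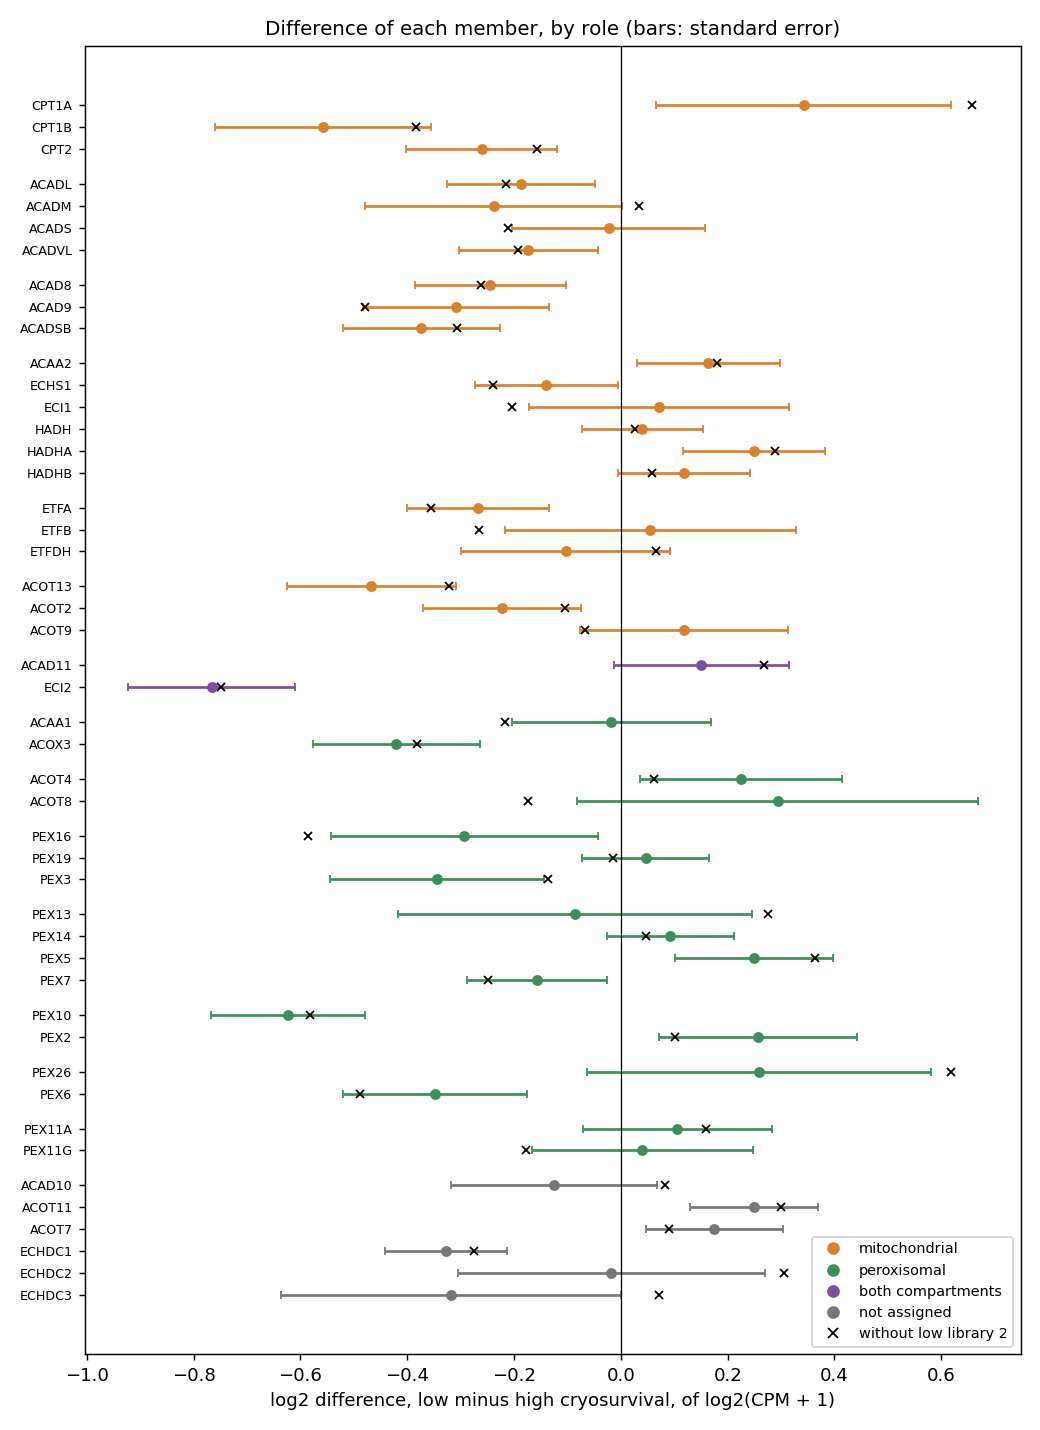
Log2 difference of 47 members (low minus high cryosurvival, on log2(CPM + 1); points with standard error), grouped by role from carnitine entry at the top to division peroxins and members of other location at the bottom, with the value without low library 2 as a cross. ECI2 (-0.77), PEX10 (-0.62) and CPT1B (-0.56) are the farthest to the left, and the crosses of ACOT8, PEX16, ETFB and CPT1A lie far from their points.

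Of the peroxins that tag the import receptors with ubiquitin, PEX10 was lower in every low cryosurvival library. It was at 25.4, 25.5 and 30.8 CPM in low libraries against 41.5, 38.4 and 47.7 CPM in high libraries 1, 2 and 3. Every low library was below every high one, and low library 2 did not stand apart. The means were 27.2 ± 3.11 and 42.5 ± 4.75 CPM (SD, n = 3 each), a ratio of 0.641, with a log2 difference of -0.62 (SE 0.14, limma adjusted p = 0.189). The adjusted p was 0.0384 without low library 2 and 0.0259 with the length index, and 0.128 in the authors' deposited table. PEX2, its partner in the same membrane ligase, was at 11.9, 16.0 and 10.7 CPM in low libraries against 9.13, 10.2 and 12.3 CPM in high libraries, with overlapping groups and a log2 difference of 0.26 (limma adjusted p = 0.695).

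Among the peroxins that remove the tagged receptor from the membrane, PEX6 is an ATPase and PEX26 its anchor. PEX6 was at 26.6, 37.3 and 28.7 CPM in low libraries against 34.6, 38.7 and 44.8 CPM in high libraries 1, 2 and 3, so that only low library 2 reached the high group. Its log2 difference was -0.35 (limma adjusted p = 0.513), and -0.49 without low library 2 (limma adjusted p = 0.0490). PEX26 was at 11.8, 5.18 and 12.4 CPM in low libraries against 8.80, 8.29 and 5.77 CPM in high libraries. Low libraries 1 and 3 were above and low library 2 below all high ones (log2 difference 0.26; 0.62 without low library 2, limma adjusted p = 0.0547).

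For membrane insertion, PEX19 carries new membrane proteins, PEX3 docks it and PEX16 recruits PEX3. PEX16 was at 64.1, 120 and 65.8 CPM in low libraries against 92.7, 100.1 and 101 CPM in high libraries 1, 2 and 3. Low library 2 was the highest of all 6 and the other low libraries were the lowest of all. The log2 difference was -0.29 (SE 0.25, limma adjusted p = 0.762), -0.59 without low library 2 (limma adjusted p = 0.0190) and -0.30 with the length index (limma adjusted p = 0.0468). PEX3 was at 9.99, 6.01 and 9.58 CPM in low libraries against 11.4, 9.70 and 11.5 CPM in high libraries (limma adjusted p = 0.597). PEX19 was at 144, 161 and 139 CPM in low libraries against 137, 146 and 147 CPM in high libraries (log2 difference 0.05, SE 0.12, limma adjusted p = 0.946). The groups of PEX19 and PEX3 overlapped.

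The import receptors differed in sign. PEX5, which binds most matrix enzymes, was at 52.1, 40.3 and 50.6 CPM in low libraries against 36.2, 43.2 and 40.0 CPM in high libraries 1, 2 and 3 (log2 difference 0.25, limma adjusted p = 0.607). PEX7, the receptor of the second targeting signal, was at 33.5, 38.6 and 30.2 CPM in low libraries against 37.5, 38.6 and 37.7 CPM in high libraries (log2 difference -0.16, limma adjusted p = 0.753). In both genes low library 2 lay inside the high range and low libraries 1 and 3 outside it. The docking peroxin PEX14 was at 49.0, 54.7 and 50.4 CPM in low libraries against 45.6, 51.5 and 47.2 CPM in high libraries (log2 difference 0.09), and PEX13 was at 25.3, 11.3 and 24.9 CPM in low libraries against 24.6, 22.5 and 15.6 CPM in high libraries (log2 difference -0.09, SE 0.33). Without low library 2 the log2 difference of PEX13 was 0.28 and the groups did not overlap (limma adjusted p = 0.327). The same held in that direction for 2630 of all 9537 genes. The division peroxins PEX11A and PEX11G had log2 differences of 0.11 and 0.04 with overlapping groups. PEX11G was at 26.6, 41.8 and 25.9 CPM in low libraries against 27.1, 29.7 and 32.8 CPM in high libraries.

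Among the peroxisomal enzymes, ACOX3, an oxidase of branched chains, was at 30.5, 30.9 and 37.1 CPM in low libraries against 41.6, 39.5 and 52.1 CPM in high libraries 1, 2 and 3. The groups did not overlap (ratio 0.739, log2 difference -0.42, SE 0.16, limma adjusted p = 0.355). The thiolase ACAA1, which ends the peroxisomal cycle, was at 204, 309 and 205 CPM in low libraries against 232, 244 and 238 CPM in high libraries (log2 difference -0.02, SE 0.19). The thioesterase ACOT8 was at 36.0, 92.5 and 32.9 CPM in low libraries against 38.4, 38.0 and 40.4 CPM in high libraries. Its ratio of 1.38 was the highest of the 50 members and rested on low library 2; without it the log2 difference of 0.29 was -0.17, and neither was called (limma adjusted p = 0.863 and 0.217). The thioesterase ACOT4 ranged from 10.8 to 15.8 CPM in low libraries, against 8.98 to 12.4 CPM in high ones. ACOT8 overlaps the measured gene SNX21 in ARS-UCD2.0, as PEX11A overlaps PLIN1 and ACAD10 overlaps BRAP, and reads of such pairs may not have been told apart.

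Of the members in both compartments or elsewhere, ACAD11 was at 15.4, 10.4 and 12.0 CPM in low libraries against 10.2, 12.0 and 11.3 CPM in high libraries 1, 2 and 3 (limma adjusted p = 0.830). ECHDC1, a cytosolic repair enzyme that removes a faulty by-product of fatty acid synthesis, was at 71.7, 64.9 and 73.3 CPM in low libraries against 87.9, 87.9 and 87.9 CPM in high libraries. The high libraries were almost equal and the groups did not overlap (ratio 0.796, log2 difference -0.33, limma adjusted p = 0.332, and 0.0305 with the length index). ACOT7, a cytosolic thioesterase, was at 143, 163 and 131 CPM in low libraries against 130, 130 and 126 CPM in high libraries (ratio 1.13, limma adjusted p = 0.700). ACOT11 was at 4.09, 3.83 and 4.66 CPM in low libraries against 3.31, 3.51 and 3.27 CPM in high libraries (ratio 1.25, limma adjusted p = 0.495). ECHDC3 was at 2.15, 0.376 and 2.04 CPM in low libraries against 1.85, 2.04 and 1.94 CPM in high libraries, so its ratio of 0.782 rested on low library 2. ECHDC2 and ACAD10 were also lowest in low library 2, at 6.83 and 23.5 CPM.

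Set side by side, the mitochondrial members had a lower median log2 difference than the peroxisomal ones. The 22 mitochondrial members had a median log2 difference of -0.16, with 8 higher and 14 lower, and the 20 peroxisomal members had one of 0.01, with 10 higher and 10 lower. Over all 9537 genes the median was 0.0002, with 4772 higher and 4765 lower. Of the peroxisomal members 15 were peroxins (median 0.04) and 5 were enzymes (median -0.02). The contrast is thus not one between oxidation enzymes alone. Within the mitochondrial set the later steps had a median of 0.09. The dehydrogenases of fatty acids had -0.18 and those with other roles -0.31. Measured from the mean of the high libraries, the mitochondrial median was -0.18, -0.11 and -0.16 in low libraries 1, 2 and 3, and 0.01, -0.03 and 0.03 in high libraries 1, 2 and 3. The peroxisomal median was -0.07, 0.02 and -0.003 in low and -0.05, 0.03 and 0.04 in high libraries. The difference of the medians, mitochondrial minus peroxisomal, was -0.11, -0.13 and -0.16 in low libraries, against 0.06, -0.06 and -0.01 in high libraries, whose values lie around 0 by construction. All low libraries were below all high libraries in this difference, low library 2 included. Measuring each library from the mean of the high ones favours such a separation, and other gene sets were not compared in this way. The 2 compartments were not separated when levels were summed. The summed CPM of mitochondrial over peroxisomal members was 1.07, 1.08 and 1.14 in low and 1.15, 1.04 and 1.10 in high libraries, with full overlap. No p is given for these medians and sums, since the genes are not replicates and were selected with earlier results of these data known. The difference of medians over the groups was -0.17, with ECI2 and ACAD11 in neither set. Leaving out high library 1 gave a difference of -0.11, and leaving out low library 1 one of -0.21. The mitochondrial median was -0.10 when high library 3 was left out. The peroxisomal median changed sign, to -0.03, both when high library 1 and when low library 2 was left out, and was 0.06 when low library 3 was. It also changed sign, to -0.02, with scaling by total reads.

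**Figure D3:**
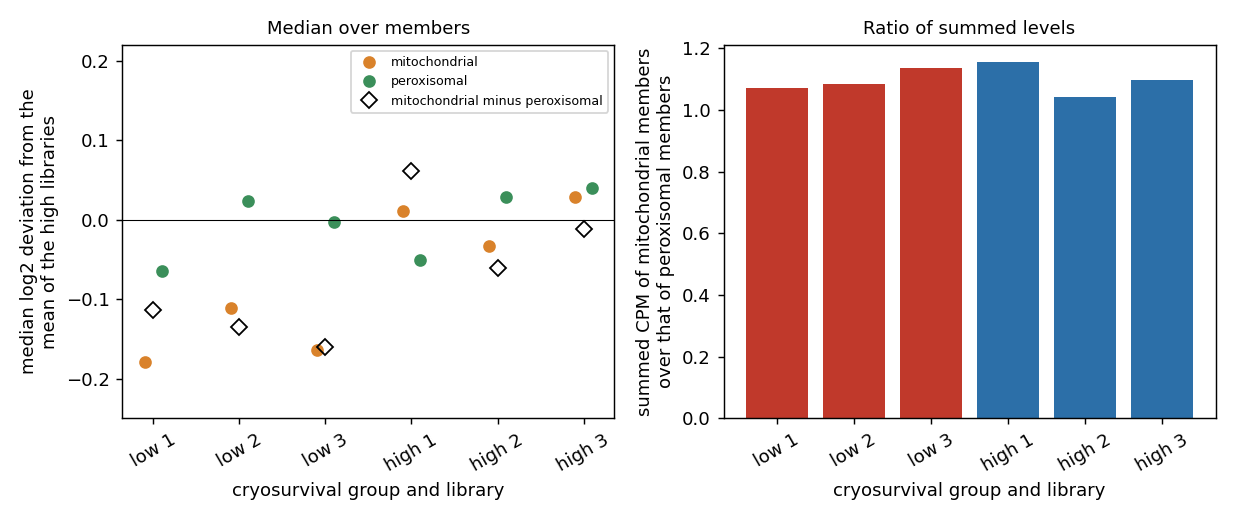
Left: median over mitochondrial (orange) and peroxisomal (green) members of the log2 deviation from the mean of the high libraries, and their difference (open diamonds), in each library. Right: ratio of the summed CPM of the 2 sets, from 0; the diamonds of low libraries (-0.11 to -0.16) lie below those of high libraries (-0.06 to 0.06), while the bars of the groups (1.07 to 1.14 and 1.04 to 1.15) overlap.

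The members varied more among low than among high cryosurvival libraries. The median coefficient of variation (SD over mean) was 18.5% in low and 7.97% in high libraries, and it was larger in low for 41 of 50 members. It was not computed over all genes, so the larger spread is not shown to be particular to the members. Without low library 2 the median in the low group was 4.99%, over 2 libraries. In 33 of 50 members low library 2 lay outside the range of the other 5, above it in 16 and below it in 17. That is 66% of the members, against 69.9% of all genes. Leaving it out turned the sign of the log2 difference in 13 of 50 members, 0 of them called in either fit. The farthest above were ACOT8, ETFB and ECI1, at 1.30, 0.80 and 0.70 on the log2(CPM + 1) scale over the mean of the other 5 libraries. Among the farthest below were ECHDC3, PEX13 and ACADM, at -1.13, -0.92 and -0.80. ECI2, PEX10 and ACOX3 were among the members in which low library 2 lay within the range of the other 5.

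**Figure D4:**
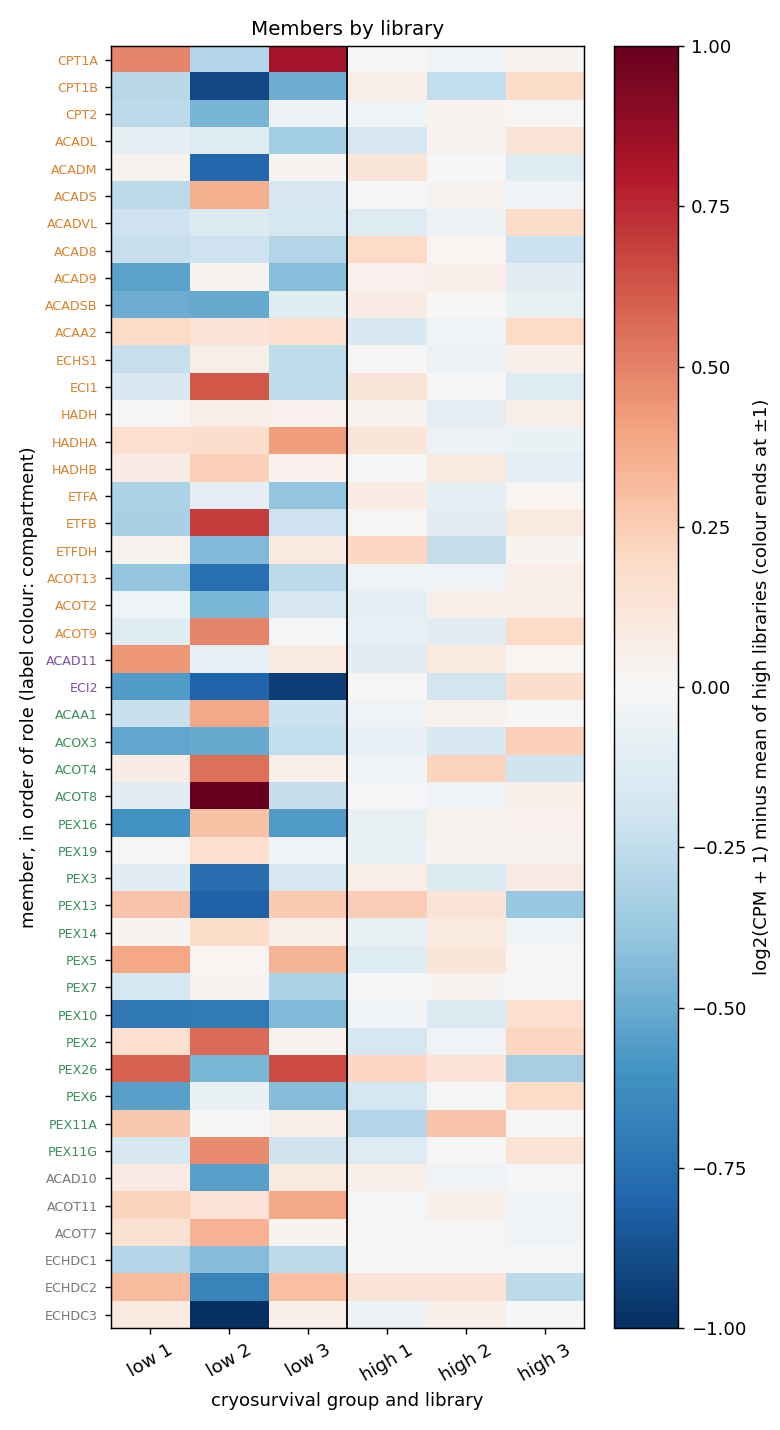
Log2(CPM + 1) of 47 members (rows, in order of role, labels coloured by compartment) minus its mean over the 3 high libraries, in each of the 6 libraries (columns; colour ends at ±1). The column of low library 2 differs from those of low libraries 1 and 3 in many rows, while ECI2, PEX10, ACOX3, CPT1B and ACOT13 are blue in all 3 low libraries.

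**Figure D5:**
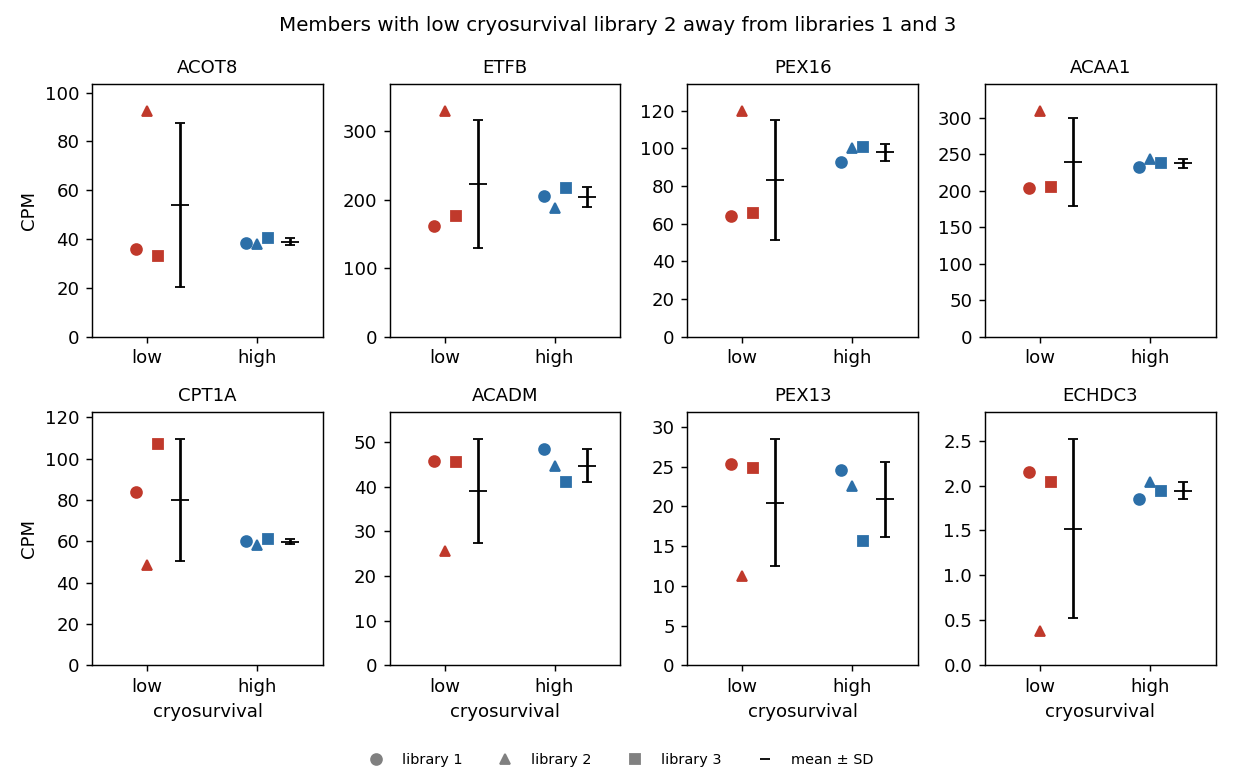
CPM (vertical axes, from 0) of 8 members in which low cryosurvival library 2 (triangle) lies away from low libraries 1 and 3, with the mean ± SD (n = 3) beside each group. The 8 were chosen after their values were seen. In ACOT8, ETFB, PEX16 and ACAA1 it is the highest of all 6 libraries, and in CPT1A, ACADM, PEX13 and ECHDC3 the lowest.

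Other genes of the same pathways, listed from general knowledge, were read from the same fits. Of 11 further mitochondrial fatty acid oxidation genes 8 were measured, and limma called 0 over all 6 libraries, with 4 at an unadjusted p below 0.05, against 12.0% of all genes. In 4 of the 8 the low libraries lay below the high ones and in 1 above, against 10.6% and 10.4% of all genes. ACSL6, which activates fatty acids with coenzyme A, was at 309, 177 and 274 CPM in low libraries against 384, 397 and 431 CPM in high libraries 1, 2 and 3 (log2 difference -0.71, limma adjusted p = 0.273). MLYCD, which breaks down malonyl-CoA, the inhibitor of the carnitine step, was at 8.99, 8.11 and 8.74 CPM in low libraries against 12.9, 12.0 and 12.0 CPM in high libraries (log2 difference -0.47, limma adjusted p = 0.198). The carnitine transporter SLC22A5 was at 26.6, 19.2 and 26.1 CPM in low libraries against 29.5, 30.9 and 32.5 CPM in high libraries (limma adjusted p = 0.420). DECR1, the dienoyl-CoA reductase for unsaturated chains, was at 1.70, 1.58 and 0.890 CPM in low libraries against 2.07, 1.94 and 2.61 CPM in high libraries, which are few reads (limma adjusted p = 0.397). The one higher without overlap was the carnitine acetyltransferase CRAT, at 67.8, 58.7 and 65.0 CPM in low libraries against 48.9, 52.9 and 44.8 CPM in high libraries (log2 difference 0.38, limma adjusted p = 0.315). With the length index, limma called ACSL6, MLYCD and SLC22A5 lower and CRAT higher, against 7.0% and 7.13% of all genes. Without low library 2 it called ACSL6 and MLYCD lower and CRAT higher, against 5.48% and 8.15% of all genes.

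Of 23 further peroxisomal genes 18 were measured, 6 with positive and 12 with negative log2 differences, a median of -0.07 and 0 called over all 6 libraries. Without low library 2 there were 10 positive and 8 negative ones, with a median of 0.01. The only one whose groups did not overlap was SCP2, which encodes a peroxisomal thiolase and a sterol carrier protein. This 1 of 18 is 5.56% lower without overlap, against 10.6% of all genes lower and 10.4% higher. SCP2 was at 182, 228 and 171 CPM in low libraries against 237, 256 and 267 CPM in high libraries 1, 2 and 3 (log2 difference -0.39, limma adjusted p = 0.362). The limma adjusted p of SCP2 was 0.0248 without low library 2 and 0.0284 with the length index. It was the only 1 of the 18 called in each fit (5.56%), against 5.48% and 7.0% of all genes called lower. Catalase (CAT), which destroys the hydrogen peroxide of the oxidases, was at 103, 78.0 and 86.0 CPM in low libraries against 95.4, 101 and 90.0 CPM in high libraries. HSD17B4, the peroxisomal bifunctional enzyme, was at 79.3, 77.8 and 85.4 CPM in low libraries against 77.0, 76.3 and 94.3 CPM in high libraries. Of 11 regulators around the PPAR receptors, which control transcription of these pathways, 6 were measured and 0 were called or separated between the groups, with log2 differences from -0.13 for PPARGC1A to 0.20 for RXRA.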

How the data were processed

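Libraries were made from total RNA with the NEBNext Ultra II RNA kit, with an RNA integrity number of at least 7.7 in every sample, per the labels' protocols. The authors' deposited table gives CPM, a log2 fold of high over low cryosurvival (turned to low over high here), and p-values with 3 decimals. The submitters' processing notes list, without roles, HTSeq 0.5.4p2, DESeq 1.12.1, Cufflinks 2.1.1, TopHat2 2.0.8, SAMtools 0.1.18 and Bowtie2 2.1.0. Not given in the sources used here are the genome build, the use of strand, the filter on low genes and the tool behind the deposited p-values. Counting without strand would mix overlapping genes, and 19 members overlap another annotated gene.

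The deposited CPM were whole multiples of 1 read (0.0499 to 0.0751 CPM), within 0.05 read, for 100% of the values checked. Limma 3.58.1 in R 4.3.3 was fitted to log2(CPM + 1) of all 9537 genes in 6 libraries, without covariate, with Benjamini-Hochberg adjustment over all genes and a threshold of 0.05. A pseudocount understates the change of low genes. The fit has 4 residual degrees of freedom, and 3 with the length index. An exact permutation test of 3 against 3 libraries cannot go below p = 0.1, so none is given. Alternatives were other pseudocounts, a filter on low means, other scalings, voom, a replicate block, the length index and leaving out each library. The scripts were tested on simulated data.

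The members, lists, length index and the option of leaving out low library 2 were chosen with earlier results of these data known. Compartments, roles and lists come from general knowledge. All 50 member symbols were found in the ARS-UCD2.0 gene table, used only for names and neighbouring genes. Values per library are given for the highest expressed member of each role, for members called in any fit, for the largest differences without overlap, and for further members where a count needed them. Of the 50 members, 3 are counted in the totals and are not reported here by name or drawn. The labels name no batch. Replicate libraries differed by more than counting noise.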

Additional observations from a re-analysis of the deposited data

How the results depend on the processing

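Over all 6 libraries limma called 0 of 9537 genes, 0 members and 0 other pathway genes. It called 7 genes with a pseudocount of 0.1 and 7 with a mean of at least 5 CPM, none of them members. With the length index it called 1348 genes, 6 members and 5 other pathway genes. Leaving out each library in turn gave 0 to 1300 genes, 0 to 6 members and 0 to 4 other pathway genes, the highest each time without low library 2. The cause was not tested.

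The mitochondrial median was -0.11 and the gap to the peroxisomal median -0.12 with a pseudocount of 5. Scaling by total reads gave medians of -0.18 for mitochondrial and -0.02 for peroxisomal members, and a gap of -0.17. Leaving out each library gave -0.1986 to -0.1009 for the mitochondrial median, -0.03101 to 0.06397 for the peroxisomal one and -0.2089 to -0.1099 for the gap. With the replicate block the calls were 0. The gap stayed at -0.17, which the block cannot change, since each block pairs a low with a high library. Same-numbered libraries did not deviate together (correlations 0.12, -0.26 and -0.31). All alternatives were run for 23 of the members, those given per library by rule. Limma over all 6 libraries without covariate called 0 members, so a kept call here means staying uncalled. A trimmed mean scaling (TMM) shifted all libraries alike, and the replicate block cannot change a log2 difference. Neither could therefore turn a sign. Of the 321 values of these 23 members, 297 kept direction and call. A call was gained in 12, and 12 turned sign, all 12 on leaving out a library and none called. Their lowest and highest log2 differences were -0.2161 and 0.08282 for ACAA1, -0.2106 and 0.09565 for ACADS, -0.1735 and 0.559 for ACOT8, -0.0676 and 0.2364 for ACOT9, -0.2653 and 0.2449 for ETFB, -0.1777 and 0.1588 for PEX11G, and -0.0154 and 0.08893 for PEX19. Over all 50 members, 13 turned sign without low library 2, among them ACADM, PEX13, ECI1, ETFDH, ECHDC2, ECHDC3 and ACAD10, which are outside those 23. The planned edgeR and DESeq2 alternatives were not run, and voom on the recovered reads was added after seeing the data, as was scaling by total reads. Counts of 5 reads limit ECHDC3 in low library 2.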
